A study of Rattus norvegicus with 6 samples.

Results

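Sult1b1, Ugt2b and Hnmt encode enzymes that attach a chemical group to small molecules, and their probes stood well above background in control kidneys but not in those of low birth weight (LBW) rats. The probe annotation named 100 genes for mRNA probes, and gave these 3 symbols to 4 of the 40351 probes measured, 2 for Sult1b1, 1 for Ugt2b and 1 for Hnmt. The 4 probes were chosen because their levels differed between LBW and control kidneys on these same arrays. Their difference between the groups is therefore a description and was given no test. Kidneys of 3 LBW and 3 control rats were compared, each on 1 one-colour array with probes for mRNAs and long non-coding RNAs. All 6 were male Sprague Dawley rats killed on postnatal day 10. Control rats had a normal birth weight and came from dams on a normal protein diet. LBW rats came from dams that ate a low-protein diet during pregnancy and while they nursed, up to day 10. Low birth weight and the diet of the dam went together in these groups and cannot be told apart.

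Sult1b1 is a cytosolic sulfotransferase that moves a sulfonate group from PAPS onto phenols and thyroid hormones. Ugt2b belongs to the UDP-glucuronosyltransferases of the endoplasmic reticulum, which join glucuronic acid from UDP-glucuronate to steroids and drugs and so make them easier to excrete. Hnmt inactivates histamine inside cells by adding a methyl group taken from S-adenosylmethionine, and the kidney is known as a tissue rich in it.

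On the 6 arrays, 79.9 to 83.6% of the spots for genes were well above background, a mark the scanning software sets for each spot, and no spot was saturated. Levels below are log2 intensities after quantile normalization. The number of arrays limits their precision.

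The first Sult1b1 probe, A_43_P12233, measured 4.99, 4.88 and 5.64 in control kidneys 1, 2 and 3. It measured 2.66, 2.07 and 2.55 in LBW kidneys 1, 2 and 3. All 3 control values lay above all 3 LBW values, with a gap of 2.22 between the lowest control and the highest LBW kidney. The means were 5.17 ± 0.41 in control and 2.42 ± 0.31 in LBW kidneys (SD, n = 3), a difference of -2.74. The probe was well above background on 3 control arrays and on 0 LBW arrays, so the LBW level was treated as an upper limit. For a bound, each LBW value was taken as the lowest signal that counted as well above background on that array. The probe's own value was kept where it was higher. By this bound Sult1b1 was 6.28-fold lower in LBW kidneys, against 6.70-fold as measured. The bound allows for dim LBW spots and not for the spread between kidneys. In bulk tissue, fewer cells that express a gene and less RNA per cell cannot be told apart.

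The second Sult1b1 probe, A_64_P053257, measured 4.79, 4.68 and 5.10 in the control kidneys, in the same order. In the LBW kidneys it measured 1.68, 2.96 and 2.73. The groups again did not overlap, with a gap of 1.72. The means were 4.86 ± 0.21 and 2.46 ± 0.68 (SD, n = 3), a difference of -2.40. By the same bound the probe was 4.74-fold lower in LBW kidneys. Control kidney 3 was the highest and control kidney 2 the lowest on both Sult1b1 probes. The LBW kidneys changed places between the probes, since kidney 2 was the lowest on the first and the highest on the second. As the second probe also failed to rise well above background in LBW kidneys, the order of its LBW values is not reliable.

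Ugt2b, probe A_64_P117003, measured 3.60, 4.21 and 4.17 in the control kidneys. The LBW kidneys stood at 0.64, 0.65 and 0.60. Control kidney 1 was the lowest of its group, and the gap to the highest LBW kidney was 2.95. The 3 LBW values lay close together because the scanning software had replaced each with a stand-in value for a spot too dim to separate from background. The means were 3.99 ± 0.34 and 0.63 ± 0.03 (SD, n = 3). The difference of -3.36 thus depends on the stand-in value. By the bound Ugt2b was 3.37-fold lower in LBW kidneys, and the data give no measured LBW level for it.

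Hnmt, probe A_44_P389916, measured 4.56, 4.76 and 4.74 in the control kidneys. In the LBW kidneys it measured 2.49, 1.98 and 2.69. The control kidneys lay within 0.20 of each other, the LBW kidneys within 0.71, and the gap between the groups was 1.87. The means were 4.69 ± 0.11 and 2.39 ± 0.37 (SD, n = 3), a difference of -2.30. Hnmt was well above background on 3 control arrays and 0 LBW arrays, and by the bound was 4.53-fold lower in LBW kidneys.

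**Figure D1:**
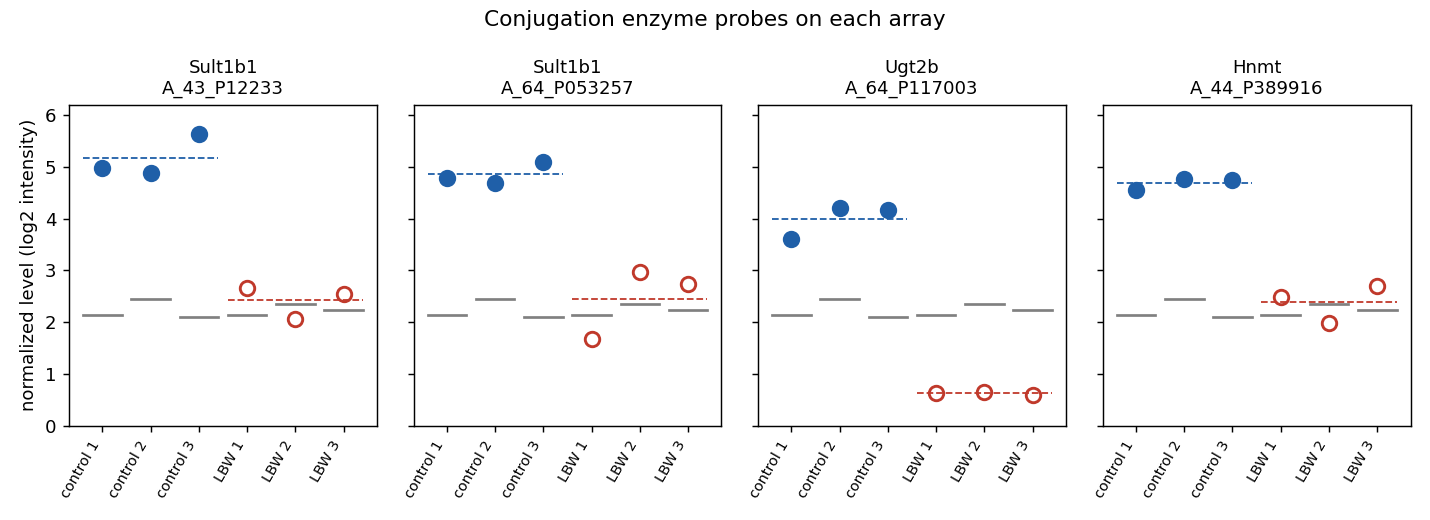
Normalized level (log2 intensity, vertical axis) of each of the 4 probes on each of the 6 arrays (horizontal axis), control in blue and LBW in red. Filled points were well above background, open points were not, dashed lines are group means and grey bars mark the lowest level well above background on that array; every control point lies above every LBW point.

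The groups did not overlap on 4 of 4 probes. Over all 33608 probes tested, 12.1% lay lower in every LBW than in every control kidney. The 4 probes also shared the pattern of being well above background on every control array and on no LBW array. This held for 64 of the tested probes (0.19%), 41 for mRNAs and 23 for long non-coding RNAs, and the opposite pattern held for 17 (0.0506%). As the probes were chosen by this contrast, these shares say nothing about them. The values the authors normalized gave differences of -2.76 and -2.39 for the Sult1b1 probes, -3.36 for Ugt2b and -2.31 for Hnmt.

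The measured size of the differences depended on how dim spots were treated. With a background correction that adds 50 to each intensity (normexp), the differences were -0.61 and -0.49 for the Sult1b1 probes, -0.38 for Ugt2b and -0.41 for Hnmt. With every intensity under 16 raised to 16, they were -1.17 and -0.86 for Sult1b1, -0.13 for Ugt2b and -0.69 for Hnmt. All stayed below 0. Each setting shrinks differences between dim spots by its construction, and a floor cannot reverse groups that do not overlap. The arrays sat in 2 rows of 1 slide, with the 3 control kidneys and LBW kidney 1 in row 1 and LBW kidneys 2 and 3 in row 2. Within row 1, LBW kidney 1 differed from the control mean by -2.51 and -3.17 on the Sult1b1 probes, by -3.35 on Ugt2b and by -2.20 on Hnmt. A fit with the row as a block gives those same 4 values, since row 2 holds no control kidney.

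The raw spot signals show how near to background these probes lay. Negative control spots, which are designed to bind no transcript, had a median raw mean signal of 18.1 to 19.2 on the 6 arrays, over 308 spots per array. The first Sult1b1 probe read 56.0, 49.2 and 71.2 in control kidneys and 28.3, 25.0 and 25.9 in LBW kidneys. The second read 53.4, 45.8 and 56.5 in control kidneys and 24.8, 29.2 and 26.7 in LBW kidneys. Both Sult1b1 probes therefore kept some signal over the negative controls in LBW kidneys: over the 3 LBW arrays, 9 and 8 of 924 negative control readings reached them. Hnmt read 47.0, 45.9 and 46.7 in control kidneys and 27.3, 25.0 and 26.2 in LBW kidneys, where 9 of 924 negative control readings reached it. Ugt2b read 35.7, 38.4 and 38.9 in control kidneys. It fell among the negative controls in LBW kidneys, at 20.1, 19.5 and 22.0, and 158 of 924 readings reached it. In the control kidneys, 1 of 924 negative control readings, a single bright spot in control kidney 2, reached any of the 4 probes. The scanning software called the Sult1b1 and Hnmt spots positive and significant on 3 of 3 LBW arrays, and the Ugt2b spot on 0 of 3.

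**Figure D2:**
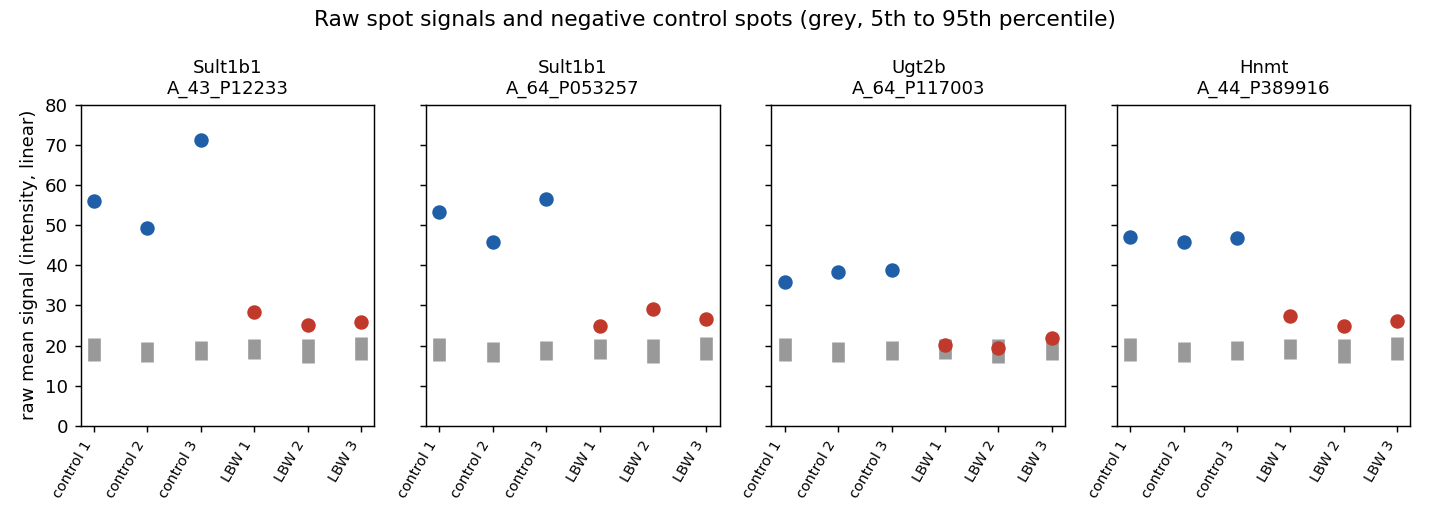
Raw mean signal (linear intensity, vertical axis) of the 4 probes on each array (horizontal axis), control in blue and LBW in red, with the 5th to 95th percentile of that array's negative control spots in grey. The LBW points of Sult1b1 and Hnmt sit between 24.8 and 29.2, just over the grey bars, and those of Ugt2b sit within or near them.

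The probe sequences are shown because the readings rest on what these 60 bases bind. The Sult1b1 probes share 50 bases, given in capitals, so they are overlapping readings of nearly the same stretch and not independent of each other. No other probe on the array shared a run of 16 bases with any of the 4, on either strand. Whether the probes bind transcripts of related genes, such as other Ugt2b genes, was not tested.
Sult1b1 A_43_P12233: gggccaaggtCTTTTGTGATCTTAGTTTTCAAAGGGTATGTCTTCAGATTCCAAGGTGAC
Sult1b1 A_64_P053257: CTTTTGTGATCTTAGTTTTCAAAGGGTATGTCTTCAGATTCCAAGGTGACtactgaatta
Ugt2b A_64_P117003: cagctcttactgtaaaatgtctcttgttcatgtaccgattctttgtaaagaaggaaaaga
Hnmt A_44_P389916: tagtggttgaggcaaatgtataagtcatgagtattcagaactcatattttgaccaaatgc

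The share of G and C was 43.3% in the first Sult1b1 probe and 35.0% in the second, in Ugt2b and in Hnmt. The 30367 catalogue probes had a median of 45.0%, with quartiles of 38.3 and 48.3%.

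Sult1b1 and Ugt2b are near neighbours in the genome. In the RefSeq annotation of the GRCr8 rat assembly both lie on chromosome 14, with Ugt2a1, Ugt2a3 and LOC134478834 as the protein-coding genes between them. Sult1e1 and Sult1d1, other sulfotransferases, come just before Sult1b1. Ugt2b15, Ugt2b37, Ugt2b35 and Ugt2b7 follow Ugt2b. Hnmt lies on chromosome 3 between Spopl and Tbpl2. Of these neighbours other than the members, Ugt2b7 was the only one whose probe carried a name, and it was also the only named gene within a megabase of Sult1b1, Ugt2b or Hnmt by the positions in the study's probe annotation, whose assembly is not stated. The Ugt2b7 probe measured 4.15, 3.52 and 3.80 in control and 2.64, 3.14 and 2.62 in LBW kidneys. Its values did not overlap between the groups, and it was well above background on 3 control arrays and 1 LBW array. The difference of -1.02 (SE 0.20, n = 3 per group) thus rests in part on LBW values that were not well above background. It did not pass the test across all probes (limma, adjusted p = 0.117). Only the control arrays, on which it was bright, brought the Ugt2b7 probe into that test, so the outcome decides nothing about a difference.

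The starts of the 3 genes are shown because their probes were low together in LBW kidneys and 2 of the genes share a chromosomal neighbourhood. RefSeq windows from 250 bases before to 50 bases after the gene start were given for 3 of 3 genes on GRCr8, at chr14:20771667-20771966 on the plus strand for Sult1b1, chr14:20985199-20985498 on the plus strand for Ugt2b and chr3:27010242-27010541 on the minus strand for Hnmt. Capitals mark matches, on either strand, to 4 motifs chosen after the sequences had been seen.
Sult1b1: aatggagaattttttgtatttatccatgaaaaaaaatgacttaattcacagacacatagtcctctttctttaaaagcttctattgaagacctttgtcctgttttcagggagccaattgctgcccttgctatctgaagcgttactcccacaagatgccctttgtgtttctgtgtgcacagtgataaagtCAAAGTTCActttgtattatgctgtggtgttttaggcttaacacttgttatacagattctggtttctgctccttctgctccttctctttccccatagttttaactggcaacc
Ugt2b: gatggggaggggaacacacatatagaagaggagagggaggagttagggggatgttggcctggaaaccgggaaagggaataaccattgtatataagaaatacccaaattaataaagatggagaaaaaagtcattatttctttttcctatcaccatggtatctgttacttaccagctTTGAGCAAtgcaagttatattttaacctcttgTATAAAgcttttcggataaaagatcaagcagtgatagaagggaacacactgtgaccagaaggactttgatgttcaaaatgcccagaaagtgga
Hnmt: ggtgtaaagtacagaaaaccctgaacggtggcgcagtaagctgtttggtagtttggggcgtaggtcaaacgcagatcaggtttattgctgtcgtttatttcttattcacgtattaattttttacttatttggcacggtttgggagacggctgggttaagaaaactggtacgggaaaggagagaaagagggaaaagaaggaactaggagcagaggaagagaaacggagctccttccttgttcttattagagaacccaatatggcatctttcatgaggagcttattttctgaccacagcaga

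The motif CAAAGTNCA of HNF4, a liver and kidney transcription factor, occurred in the Sult1b1 window at bases 189 to 197, as CAAAGTTCA. It was present in 1.24% of the 33469 promoter windows of this length. The C/EBP motif TTGCNNAA occurred in the Ugt2b window at bases 176 to 183 on the minus strand, where it reads TTGAGCAA on the plus strand, and was present in 10.6% of windows. A TATAAA box lay in the Ugt2b window at bases 208 to 213 and was present in 14.2% of windows. The HNF1 motif GTTAAT, present in 7.45% of windows, occurred in none of the 3, and the Hnmt window held none of the 4 motifs. No match overlapped another. These matches describe letters and are no evidence of binding.

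Other enzymes of conjugation could be followed only in small part, since 150 probes carried a gene or transcript name and the study had chosen these for their difference on these same arrays. Of 95 genes in lists of glucuronosyltransferases, sulfotransferases, methyltransferases, acyl-transferring enzymes and glutathione S-transferases, 3 had a named probe. These were Ugt2b7, Nat8, which acetylates cysteine conjugates on the way to mercapturic acids, and Cml3, a relative of Nat8. The median difference of the 3 was -1.13, against 0.00 over all 33608 tested probes, and it was -1.24 for LBW kidney 1 alone against the control kidneys of its slide row. Cml3 and Nat8 fell in LBW kidneys and 0 of the 3 rose (limma, adjusted p under the 0.05 threshold), while 48 of all tested probes (0.143%) passed, 32 lower (0.0952%) and 16 higher (0.0476%). Because the study picked these probes on these arrays, their direction is not independent evidence.

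Cml3 measured 8.46, 8.54 and 8.16 in control and 5.36, 5.67 and 5.83 in LBW kidneys, a difference of -2.77 (SE 0.16, n = 3 per group; limma, adjusted p = 0.00396). Nat8 measured 10.76, 10.46 and 10.31 in control and 9.27, 9.38 and 9.50 in LBW kidneys, a difference of -1.13 (SE 0.14, n = 3 per group; limma, adjusted p = 0.0485). Both were well above background on all 6 arrays, unlike the Sult1b1, Ugt2b and Hnmt probes. Leaving out any 1 array kept Cml3 past the threshold in 6 of 6 fits and Nat8 in 0 of 6. Within slide row 1, LBW kidney 1 alone differed from the control mean by -3.03 for Cml3 and by -1.24 for Nat8. In the fit with the row as a block, which tests that 1 LBW kidney, Nat8 did not pass (limma, adjusted p = 0.295) and Cml3 did (limma, adjusted p = 0.0259); neither outcome speaks for the LBW group. Over all alternatives the adjusted p from limma or the methods' test ran from 0.00661 to 0.295 for Nat8 and from 0.000345 to 0.141 for Cml3.

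The number of probes past the threshold rested on every array. Without control kidney 1, 2 or 3 it was 29, 12 or 4, and without LBW kidney 1, 2 or 3 it was 3, 4 or 4, in place of 48. With the slide row as a block, where LBW kidney 1 alone is set against the control kidneys, 7 probes passed. With every intensity under 16 raised to 16, limma called 0 probes, with 5602 at an unadjusted p under 0.05.

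Of the genes of oxidation and hydrolysis, which act on many of the same compounds before conjugation, 52 were followed and 3 of these had a named probe; the rest of that list was not used here. Aadac, an esterase of the endoplasmic reticulum, was the only one of them past the threshold. Aadac measured 4.79, 4.48 and 4.55 in control and 2.24, 2.85 and 2.64 in LBW kidneys. It was well above background on 3 control and 0 LBW arrays. Its measured level was 4.09-fold lower in LBW kidneys (limma, adjusted p = 0.015), and the bound is the same value. Each LBW value exceeded the lowest signal well above background on its array. Aadac entered the test only through the control arrays, on which it was bright, so that p is no support for a difference. It passed in 0 of the 6 fits that left out 1 array. Fmo1, a flavin-containing monooxygenase with a difference of -1.19 (SE 0.16), and Akr1b10, an aldo-keto reductase with a difference of 1.13 (SE 0.24), did not pass (limma, adjusted p = 0.0704 and 0.132). The median of the 3 was -1.19, and -0.89 for LBW kidney 1 alone against the control kidneys of its slide row.

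No named probe was found for lists of further sulfotransferases, methyltransferases, glutathione S-transferases, histamine handling, cosubstrate supply, deconjugation, organic ion transporters and transcription factors. Names existed only for probes the study reported as differing, so other probes for these genes could not be identified. The kidney label could not be checked against its markers for the same reason, because 0 of 17 proximal tubule genes had a name. Of 94 marker genes for 14 tissues and cell types, 2 had a named probe. Alb, the liver's albumin, measured 1.06, 2.44 and 1.82 in control and 4.12, 3.74 and 3.50 in LBW kidneys. It was well above background on 0 control and 3 LBW arrays. By the same kind of bound, taken on the control arrays, it was 2.94-fold higher in LBW kidneys. Alb did not pass (limma, adjusted p = 0.0931), but only the LBW arrays, on which it was bright, brought it into the test. That outcome therefore decides nothing about a difference. Lyz2, a lysozyme of macrophages, was well above background on all 6 arrays. It differed by -1.25 (SE 0.23, n = 3 per group) and did not pass (limma, adjusted p = 0.102). Whether a change in cell makeup had a part in the Sult1b1, Ugt2b and Hnmt values was not tested.

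The named probes whose levels went most closely with each enzyme over the 6 arrays are given with Pearson's r and no p. The groups stood apart on each of them, so r mostly restates the difference between the groups. The LBW values of Sult1b1, Ugt2b and Hnmt were not well above background, those of Ugt2b were stand-ins, and the same dimness held for TCONS_00089846 and Olr666 on 3 LBW arrays and for Mrpl30 on 2. The exact r values and their order therefore rest in part on levels that were not well above background. For the mean of the Sult1b1 probes they were the long non-coding transcripts XR_146533.1 (r = 0.994), TCONS_00098189 (r = 0.990), TCONS_00089846 and TCONS_00054808 (both r = 0.980), and Slc15a1, a transporter of small peptides (r = 0.983). For Ugt2b they were Agxt2, a mitochondrial aminotransferase known from kidney (r = 0.990), the olfactory receptor gene Olr666 (r = 0.990), XR_146533.1 (r = 0.988), TCONS_00054808 (r = 0.985) and TCONS_00089846 (r = 0.982). For Hnmt they were Mrpl30, of the mitochondrial ribosome (r = 0.996), Tmigd1, a membrane protein of kidney and gut epithelium (r = 0.995), TCONS_00054808 (r = 0.992), Slc15a1 (r = 0.987) and Olr666 (r = 0.981). TCONS_00054808 was the one name on all 3 lists. Most probes with such values had no name: of 33533 probes compared, named or not, 47, 32 and 41 reached at least the r of the fifth name for Sult1b1, Ugt2b and Hnmt.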

How the data were processed

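The authors extracted total RNA from kidneys, labelled it with Cy3, hybridised each sample to 1 array and read it with Agilent Feature Extraction 10.7.1.1. The scanner files they deposited hold spot intensity, as raw and as background-subtracted processed values. The value table the authors deposited holds their normalized log2 values; its columns have a median of 6.88 on each array and follow the scanner values of the same array on a log2 scale, uncentred.

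Processed intensities of 61411 spots per array, controls left out, were quantile normalized, floored at 1 and taken to log2, after which outlier spots were dropped and spots of a probe averaged. A probe was well above background where a share of at least 0.5 of its spots were. The test took probes that were well above background throughout 1 group or both, 33608 of 40351, made up of 26060 for mRNAs and 7548 for long non-coding RNAs. limma 3.58.1 in R 4.3.3 (lmFit, eBayes, two-sided) compared LBW with control, with p-values adjusted by Benjamini and Hochberg's method over every tested probe and a threshold of 0.05. Motifs and figures were made in Python 3.11.15. The fit was tested on simulated data.

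A bound is the control mean minus the mean, over LBW arrays, of the higher of the lowest level well above background and the probe's own level. Probe names came from the study's annotated lists of probes that differed between the groups, since the scanner files name no genes. Probe sequences came from the scanner files. The genes described were the 3 members, listed conjugation genes, called genes of the other lists with up to 5 more per list and direction, named neighbours, and the 5 named probes most like each member, 1 per gene. Members and lists were chosen with earlier results of these data known. Alternatives were another scaling, normexp with an offset of 50, the authors' table, other filters, floors and tests, a replicate block and each array left out.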

Additional observations from a re-analysis of the deposited data

How the results depend on the processing

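All 4 member probes stayed lower in LBW kidneys in every alternative run. Leaving out an array or raising the floor could not reverse this, since the groups of these chosen probes did not overlap. No member spot was an outlier, so keeping outlier spots could not move the members. A 75th percentile scaling, the authors' table and outlier spots kept moved each by less than its spread between replicates. Normexp gave -0.61 and -0.49 for Sult1b1, -0.38 for Ugt2b and -0.41 for Hnmt, and a floor of 16 gave -1.17, -0.86, -0.13 and -0.69; both compress dim spots by construction. Slide row as a block, chosen after seeing the data, sets LBW kidney 1 alone against the control kidneys and moved the second Sult1b1 probe to -3.17. Leaving out 1 array gave -2.89 to -2.51 and -2.65 to -2.01 for Sult1b1, -3.56 to -3.26 for Ugt2b and -2.45 to -2.10 for Hnmt. The bounds then ran from 5.33 to 6.95 and 4.03 to 5.36 for Sult1b1, 3.13 to 3.86 for Ugt2b and 4.29 to 4.83 for Hnmt. The 48 probes with adjusted p under 0.05 became 99 with normexp, 3 with no filter on dim probes, 2 by the methods' t-test, 182 with trended and robust variance, 7 with the row block, 0 with the floor of 16 (limma, 5602 at an unadjusted p under 0.05) and 3 to 29 with 1 array left out. Of the 3 named conjugation-enzyme probes, 2 passed; 1 passed with the authors' table, with no filter, with the row block and with any 1 array left out, and 0 by the methods' t-test and with the floor of 16. The floor and the row block were applied to these counts after seeing the data. Their median stayed between -1.23 and -1.01 with 1 array left out. The cause of these shifts was not tested. Both groups carry replicate numbers 1 to 3, but deviations of same-numbered arrays from their group means correlated at 0.03, 0.06 and -0.01, so the numbers were not taken as pairs. With a replicate block limma called 0 probes, and 0 named conjugation-enzyme probes, at adjusted p under 0.05. In that limma fit 4839 probes had an unadjusted p under 0.05. Differences of the members did not move, since a balanced block cannot change them. The labels name no litter or dam, so p-values measure only the spread between samples. The LBW levels of all 4 probes were not well above background and were treated as upper limits. Among them only the Ugt2b values were stand-ins.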
